A study of Mus musculus with 6 samples.

Results

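The genes described here encode the folding, quality control and translocation machinery of the endoplasmic reticulum (ER) together with regulators of the unfolded protein response. They are 33 genes picked by symbol from a table of 25407 gene rows, and each symbol occupied 1 row. They comprise 9 chaperones and co-chaperones, 6 lectin chaperones and disulfide isomerases, 8 genes of ER-associated degradation, 3 genes of stress sensing, and 7 genes of the translocon and signal peptidase. RNA came from a mouse colon carcinoma line, CT26.WT, and the question was how a combined treatment changed the transcriptome. The treated group, of 3 libraries, was given Cu2O@AuMn@HA (a nanoparticle that holds copper oxide, gold and manganese) plus NaHS, which releases hydrogen sulfide, plus near-infrared light (NIR). Control cells gave 3 libraries, and the labels do not say whether they received vehicle or light. The labels give neither doses nor times. They also do not say that the libraries of a group are separate cultures, and p-values then cover only the spread among these libraries, which could be technical in origin. As the single treated group received nanoparticle, donor and light together, their effects cannot be told apart.

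Proteins bound for secretion or for membranes enter the ER through the Sec61 translocon, where chaperones of the Hsp70 and Hsp90 families, lectin chaperones and disulfide isomerases fold them. Proteins that fail to fold are moved back to the cytosol and degraded. When unfolded proteins build up, the membrane sensors IRE1 (gene Ern1), ATF6 and PERK (gene Eif2ak3) signal to the nucleus. ATF6 and the spliced form of Xbp1 mRNA, which IRE1 makes, induce chaperone and degradation genes, while PERK lowers translation and acts through ATF4 and CHOP (gene Ddit3). The induced chaperone genes are known for carrying an ER stress response element (ERSE) in their promoters.

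Promoters are shown first because this element is the best known sequence link between these genes. RefSeq windows of the 250 bases before the start (GRCm38.p6, the reference mouse and not the CT26.WT line) matched 26 of the 33 genes. The ERSE was searched on both strands as CCAAT, any 9 bases and CCACG. It was found in 37 of 32851 windows in the genome (0.113%) and in 9 of the 26 genes (34.6%). The copies are written 5′ to 3′ on the strand that reads CCAAT first, with the fixed letters in capitals and the bases between them in lower case:
Hspa5, chr2:34772025-34772043, plus strand: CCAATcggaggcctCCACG
Hsp90b1, first copy, chr10:86705638-86705656, minus strand: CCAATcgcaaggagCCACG
Hsp90b1, second copy, chr10:86705533-86705551, plus strand: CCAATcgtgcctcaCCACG
Calr, chr8:84847075-84847093, plus strand: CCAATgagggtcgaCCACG
Canx, chr11:50325800-50325818, minus strand: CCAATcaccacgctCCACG
Pdia6, chr12:17266491-17266509, plus strand: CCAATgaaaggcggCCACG
Dnajc3, chr14:118937827-118937845, plus strand: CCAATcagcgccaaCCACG
Creld2, chr15:88819520-88819538, minus strand: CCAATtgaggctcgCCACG
Syvn1, chr19:6046532-6046550, plus strand: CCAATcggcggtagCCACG
Derl3, chr10:75893242-75893260, minus strand: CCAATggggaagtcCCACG

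A related element, ERSE-II, was searched as ATTGG, any 1 base and CCACG. It was present in 10 of the 32851 windows (0.0304%) and, among the genes described, in Herpud1 alone. The Herpud1 window also held a C/EBP-ATF element (TGATGCAA), which 260 windows carried (0.791%), and which stands in it as its reverse complement. The unfolded protein response element TGACGTGG was in 185 windows (0.563%) and in 0 of the 26 genes. The whole windows are shown for Herpud1, which fell most among the genes with a window, for Dnajb9, which rose most, and for Hspa5, the main ER chaperone gene. Capitals mark the elements named above, and the Dnajb9 window held none of them:
Herpud1, chr8:94386179-94386428, plus strand: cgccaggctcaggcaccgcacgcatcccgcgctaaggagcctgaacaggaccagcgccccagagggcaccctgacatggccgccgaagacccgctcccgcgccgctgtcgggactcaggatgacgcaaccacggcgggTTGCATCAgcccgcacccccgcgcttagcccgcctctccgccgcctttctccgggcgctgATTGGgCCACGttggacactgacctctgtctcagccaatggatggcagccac
Dnajb9, chr12:44210069-44210318, minus strand: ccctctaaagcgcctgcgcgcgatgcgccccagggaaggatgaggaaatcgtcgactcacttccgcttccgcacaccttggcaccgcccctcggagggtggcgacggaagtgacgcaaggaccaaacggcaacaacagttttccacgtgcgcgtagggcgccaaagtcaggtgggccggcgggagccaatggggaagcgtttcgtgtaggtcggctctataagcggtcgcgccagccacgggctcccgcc
Hspa5, chr2:34771840-34772089, plus strand: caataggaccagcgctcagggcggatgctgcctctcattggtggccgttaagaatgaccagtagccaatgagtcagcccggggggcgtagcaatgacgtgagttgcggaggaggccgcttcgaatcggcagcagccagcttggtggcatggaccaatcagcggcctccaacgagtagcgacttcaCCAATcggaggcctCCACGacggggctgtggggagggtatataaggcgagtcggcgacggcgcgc
A match describes letters in a window and does not show that a factor bound there.

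Among the 32 genes with enough reads to be tested, more fell than rose. By edgeR's quasi-likelihood test with Benjamini-Hochberg adjustment over 16212 rows and an adjusted p under 0.05, 16 fell (50%), against 23.5% of all rows tested, and 5 rose (15.6%), against 23.0% of all rows. The other 11 did not pass the threshold. These shares of all rows were not matched to the genes for level. With a minimum mean FPKM of 5, 12 of the genes fell and 8 rose, against 2193 lower and 2217 higher of 6168 rows. Calls in both directions thus took a larger share of the rows in that fit than of all rows tested. Pdia5, Dnajc3, Derl2 and Derl3 were too low for that fit. Among the genes left in it, the share that fell lay nearer to the share of its rows than in the main fit. The median log2 fold change of the 32 genes was −0.21, against 0.06 over all rows. The 16 that fell were led by Ssr2, Herpud1, Sdf2l1 and Manf, and the 5 that rose were Dnajb9, Tram1, Hsp90b1, Spcs1 and Pdia3. The 32 are not all of the genes, since Derl3, a degradation gene, was too low to test, with 10, 0 and 4 estimated counts in treated libraries against 0, 6 and 0 in control libraries.

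Levels are given as deposited FPKM (fragments relative to the length of the transcript and the size of the library), which compares genes per length but only as a share of each library. In bulk RNA, fewer cells of a type and less RNA per cell cannot be told apart. Summed over the genes, FPKM was 1489, 1502 and 1400 in treated libraries against 1702, 1699 and 1702 in control libraries, so all 3 treated libraries lay below all 3 control libraries. The sum over the chaperones and co-chaperones overlapped (350.2, 381.3 and 304.4 FPKM in treated libraries against 369.5, 347.9 and 360.3 FPKM in control libraries). The sums over the other roles did not overlap. The groups did not overlap for the 16 genes that fell and the 5 that rose, and overlapped for 10 of the 11 that did not pass. Over all rows tested, every treated library lay above every control library for 30.4% and below for 27.1%. Calr was the most abundant and Pdia5 the least abundant of the tested genes in the plot of levels by gene.

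**Figure D1:**
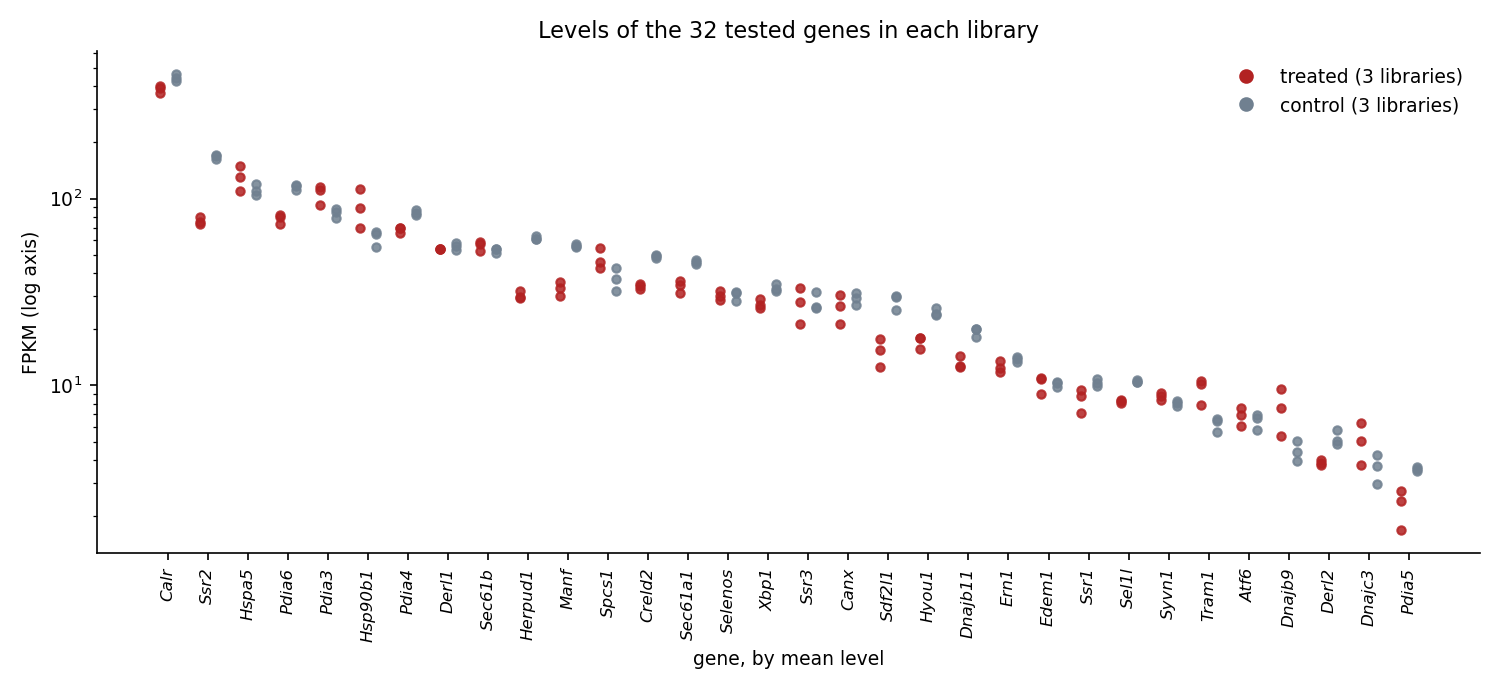
Deposited FPKM on a log axis for the 32 tested genes, ordered by mean level, with 1 point per library and treated libraries left of control libraries. Calr lies highest, at 386 FPKM in treated and 443 FPKM in control cells on average, and the treated points of Ssr2 and Herpud1 lie clear below their control points.

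The libraries differed in more than the treatment labels. Totals were 62328377 to 70323604 estimated counts in treated and 71409968 to 81821380 in control libraries, and the labels name no batch. Ribosomal RNA took 0.251% to 0.260% of counts in treated and 3.62% to 3.94% in control libraries. The mitochondrial chromosome took 1.96% to 3.45% in treated and 1.25% to 1.86% in control libraries, with the highest share in the treated library numbered 2. Fold changes also moved with the GC content of transcripts, with a Spearman correlation across genes, which are not independent, of −0.63 over the 32 tested genes and −0.27 over 15760 rows with a known GC content. Log2 fold changes below are therefore given beside those of a fit that corrects each library for GC content. That fit found 3 of the 32 genes higher (9.38%, against 24.3% of all rows) and 16 lower (50%, against 25.4% of all rows), with a median of −0.23 against 0.03 over all rows. It shared 14 of the lower calls and 1 of the higher calls with the uncorrected fit. The part of ribosomal RNA, mitochondrial RNA or GC content in the changes was not tested further. Epithelial markers were sparse in both groups: 2 of 10 (Krt8 and Krt18) reached a mean of 1 FPKM, and the list summed to 162 to 184 FPKM in treated and 65.8 to 76.1 FPKM in control libraries, and Epcam and Cdh1 were at or near 0. By contrast, 7 of 8 mesenchymal markers reached that level, and the list summed to 1615 to 1730 FPKM in treated and 1145 to 1229 FPKM in control libraries. Vim carried most of that sum (1264 to 1338 FPKM in treated and 897 to 968 FPKM in control libraries), while Col1a1 was lower in all treated libraries (14.4 to 16.1 FPKM, against 30.2 to 31.7 FPKM in control libraries), and Col1a2 was lower too (43.2 to 49.4 FPKM in treated and 60.9 to 67.95 FPKM in control libraries). Of the 6 plasma cell markers, a cell type with a large ER, 5 were in the table and 2 (Sdc1 and Tnfrsf17) reached a mean of 1 FPKM. The list summed to 23.0 to 25.6 FPKM in treated and 31.7 to 35.3 FPKM in control libraries. Sdc1 carried most of that sum (20.8 to 23.3 FPKM in treated and 29.1 to 32.85 FPKM in control libraries). Tnfrsf17 was lower in treated libraries too, and below 1 FPKM in each of them. Prdm1 went the other way (1.18 to 1.27 FPKM in treated and 0.138 to 0.256 FPKM in control libraries). Leukocyte markers reached a mean of 1 FPKM for 2 of 6 (Lyz2 and Cd68), and endothelial markers for 0 of 4. The leukocyte list summed to 58.4 to 66.6 FPKM in treated and 30.5 to 30.7 FPKM in control libraries.

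**Figure D2:**
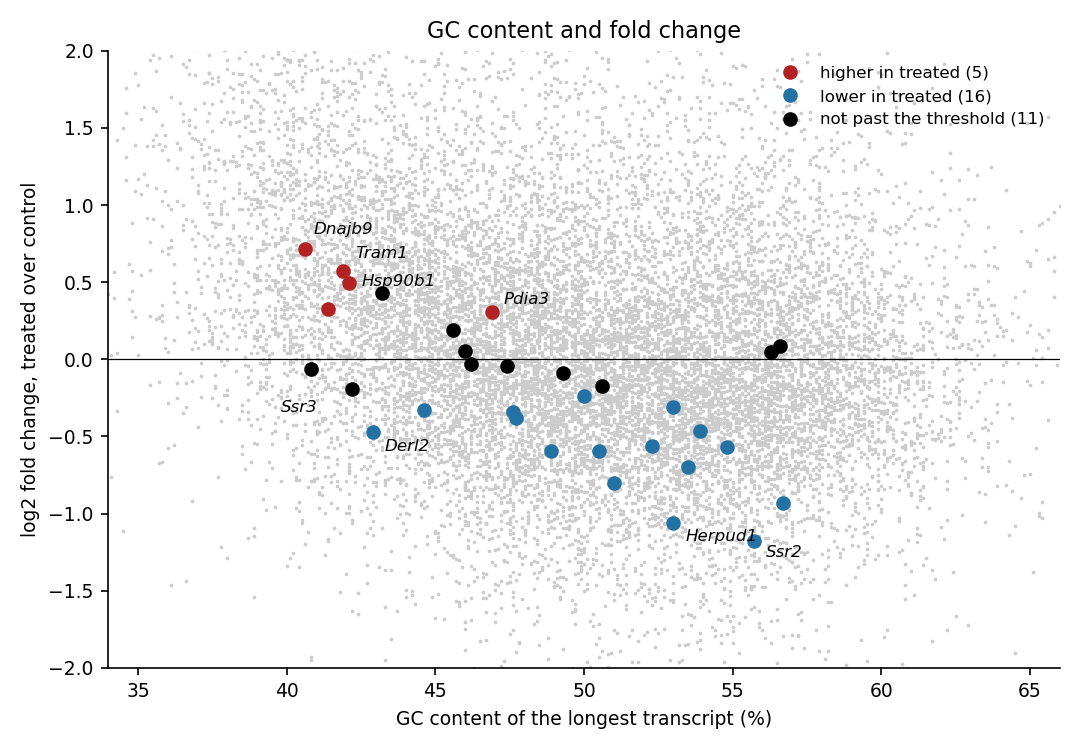
Log2 fold change (treated over control) against the GC content of the longest transcript in percent, for the 32 tested genes (large points, coloured by call) and all other tested rows (grey), with the axes limited to the range shown. The 5 genes that rose had 40.6% to 46.9% GC and the 16 that fell had 42.9% to 56.7% GC.

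The ranges of GC content of genes with different calls overlapped. The genes that rose had a median GC content of 41.9%, the genes that fell 51.6%, and those that did not pass 46.2%. Derl2, at 42.9% GC, had the lowest GC content of the genes that fell, and it fell in both fits. Of the genes that rose, Pdia3 alone kept its call after GC correction. Whether GC content gave rise to these changes was not tested. Before the correction the correlation with GC content was −0.63 over the 32 genes. After the correction the correlation with GC content was −0.20 over the 32 genes and −0.01 over all rows.

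Counts by role, each of few genes, are to be read against all rows tested. Of these rows 23.5% fell and 23.0% rose, or 25.4% and 24.3% after GC correction. The chaperones and co-chaperones split: 5 of 9 fell and 2 rose, and after GC correction 5 fell and 0 rose (also 0 at an unadjusted p under 0.05, while DESeq2 without that correction called 3). Those that fell are mostly helpers of the major chaperones. Sdf2l1, whose product sits in complexes of BiP with ER DnaJ proteins, had 15.5, 12.6 and 17.6 FPKM in treated libraries against 25.3, 29.8 and 30.0 FPKM in control libraries. It fell to 0.52 of the control level (log2 fold change −0.93 ± 0.15 SE, adjusted p = 6.24e-04, n = 3 each). Every treated library lay below every control library, with treated library 2 lowest. Manf, which encodes a secreted protein that is held in the ER and released under stress, had 35.7, 30.0 and 33.3 FPKM in treated libraries against 56.0, 55.3 and 57.0 FPKM in control libraries. Its log2 fold change was −0.80 ± 0.08 (adjusted p = 4.21e-05). The Manf groups were far apart, and the Manf row overlaps Rbm15b on the same strand in the deposited coordinates, so its count is uncertain to that extent.

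Dnajb11 encodes ERdj3, a co-chaperone that hands unfolded proteins to BiP. Its level was 14.4, 12.6 and 12.7 FPKM in treated libraries against 20.1, 20.1 and 18.1 FPKM in control libraries (−0.59 ± 0.09, adjusted p = 4.07e-04). Creld2, an ER stress-induced protein with isomerase activity, had 34.2, 32.8 and 34.8 FPKM in treated libraries against 49.6, 49.99 and 47.9 FPKM in control libraries (−0.57 ± 0.08, adjusted p = 2.52e-04). Hyou1, the large Hsp70 relative that exchanges nucleotide on BiP, had 17.9, 15.7 and 17.9 FPKM in treated libraries against 23.8, 26.1 and 24.1 FPKM in control libraries (−0.56 ± 0.09, adjusted p = 7.07e-04). In all of these the spread within a group was small beside the gap between groups. After GC correction the 5 genes that fell, Sdf2l1, Manf, Dnajb11, Creld2 and Hyou1, had log2 fold changes of −0.80, −0.66, −0.46, −0.39 and −0.39, each still past the threshold.

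Hspa5 and Hsp90b1, the genes of the main Hsp70 and Hsp90 chaperones of the ER, were not called lower. Hspa5, which encodes BiP (GRP78), the Hsp70 chaperone that also restrains the stress sensors, had 131, 149.7 and 109.6 FPKM in treated libraries against 119, 104 and 110.1 FPKM in control libraries. The groups overlapped, since treated library 3 lay below control libraries 1 and 3, and the test was not passed (0.19 ± 0.10, adjusted p = 0.155, or 0.09 after GC correction). Hspa5 was called higher without treated library 3 (0.28, adjusted p = 0.0265), with upper-quartile scaling (0.31, adjusted p = 0.0289) and with a minimum mean FPKM of 5 (0.32, adjusted p = 0.0377). Hsp90b1, which encodes GRP94, the Hsp90 of the ER, had 88.8, 112 and 69.2 FPKM in treated libraries against 66.1, 55.3 and 65.0 FPKM in control libraries. It rose 1.41-fold (0.50 ± 0.14, adjusted p = 0.0159), with the groups close at treated library 3 and control library 1. The call was lost without treated library 2 (0.30, adjusted p = 0.0531), without control library 2 (0.42, adjusted p = 0.0661) and after GC correction (0.03, adjusted p = 0.694). The Hsp90b1 row overlaps Gm15344 and Gm54730 on the same strand, so its count is uncertain.

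The other DnaJ proteins of the group rose or did not pass. Dnajb9 encodes ERdj4, a well-known target of spliced Xbp1 that helps BiP to silence IRE1. It had 7.59, 9.61 and 5.39 FPKM in treated libraries against 5.04, 3.94 and 4.42 FPKM in control libraries and rose 1.64-fold (0.72 ± 0.19, adjusted p = 0.0106). The groups came close at treated library 3 and control library 1. The value was 0.11 after GC correction (adjusted p = 0.406), and the call was also lost without both libraries numbered 2 (0.44, adjusted p = 0.0747). Dnajc3, the co-chaperone p58IPK, which also inhibits PERK, had 5.02, 6.26 and 3.77 FPKM in treated libraries against 4.23, 2.96 and 3.71 FPKM in control libraries. These overlapped and did not pass (0.43 ± 0.17, adjusted p = 0.0680, or 0.09 after GC correction), though Dnajc3 was called higher without treated library 3 (0.58, adjusted p = 0.0224), by DESeq2 (0.42, adjusted p = 0.0311), with upper-quartile scaling (0.55, adjusted p = 0.0304) and with counts divided by 4 (0.45, adjusted p = 0.0427).

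**Figure D3:**
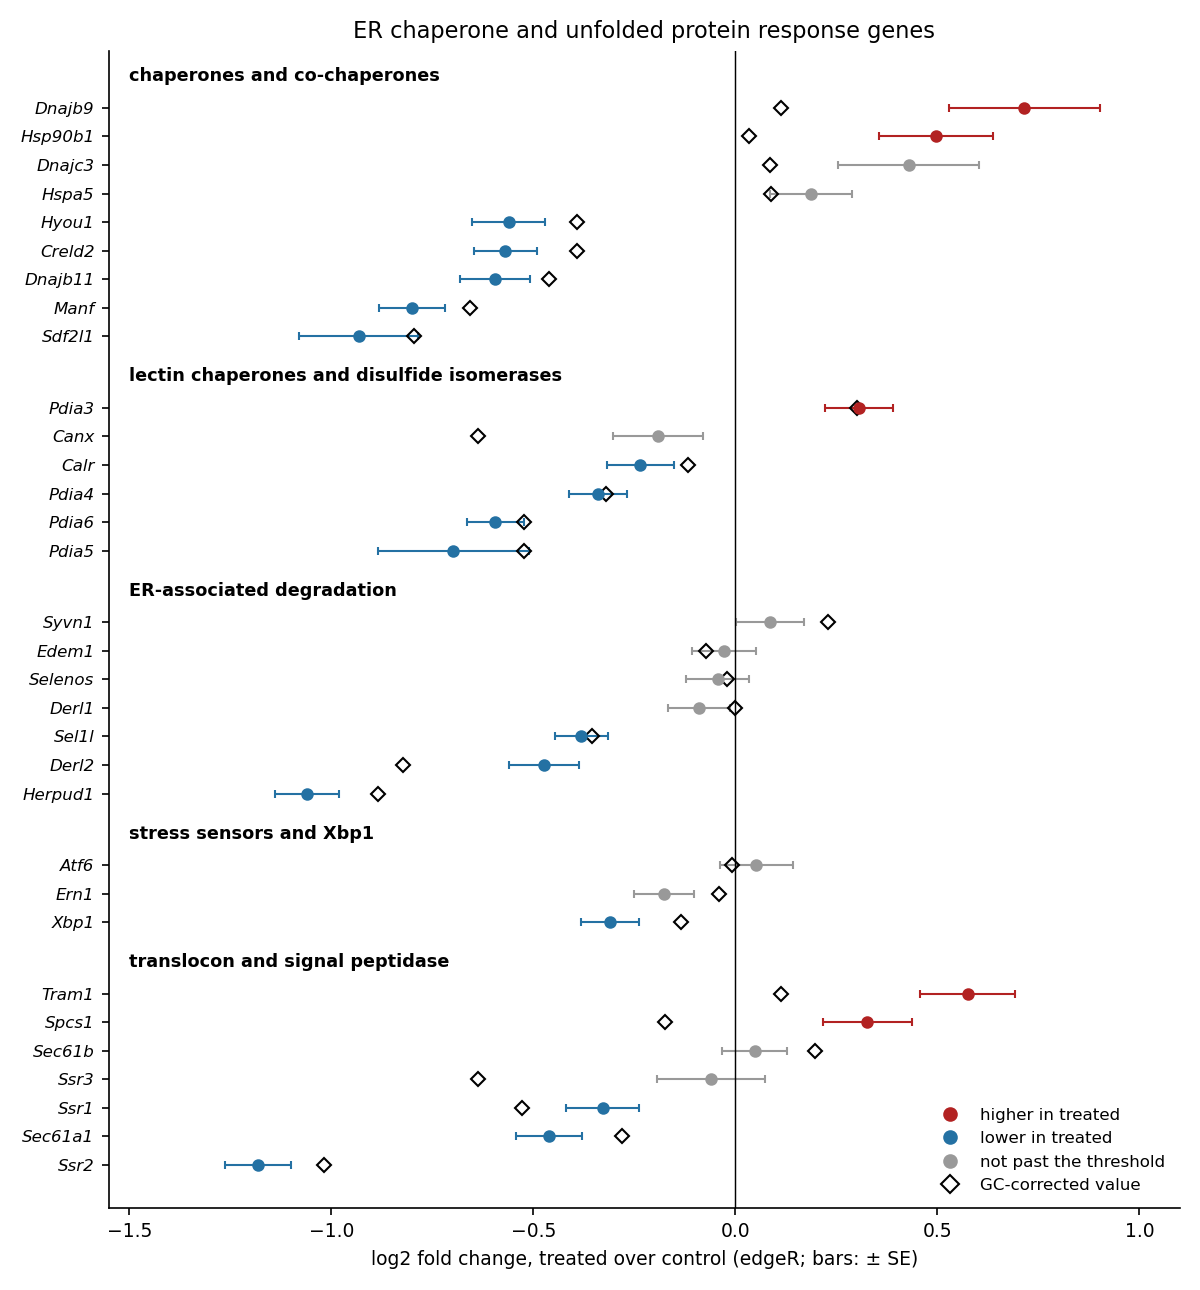
Log2 fold change (treated over control) of the 32 tested genes by role, with bars for ± SE of the edgeR fit and open diamonds for the GC-corrected value. The diamonds of Dnajb9, Hsp90b1 and Tram1 lie near 0 (0.11, 0.03 and 0.11), while those of Herpud1 and Ssr2 stay far to the left (−0.88 and −1.02).

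Of the lectin chaperones and disulfide isomerases, 4 of 6 fell and 1 rose, with the same counts after GC correction but with Canx in the place of Calr. Falls were 66.7% and rises 16.7% of these genes, against 23.5% and 23.0% of all rows. Calr encodes calreticulin, the soluble lectin chaperone of glycoproteins, known in tumour biology for reaching the cell surface in some forms of cell death. It had 392, 368 and 399 FPKM in treated libraries against 423, 466 and 439 FPKM in control libraries. The groups lay apart by a small step (−0.24 ± 0.08, adjusted p = 0.0405). The call was lost after GC correction (−0.12, adjusted p = 0.173) and without treated library 1 (−0.24, adjusted p = 0.103), treated library 2 (−0.21, adjusted p = 0.0651), control library 2 (−0.19, adjusted p = 0.107) or control library 3 (−0.27, adjusted p = 0.0789). Canx encodes calnexin, its membrane-bound partner, and had 26.6, 30.5 and 21.2 FPKM in treated libraries against 31.2, 26.8 and 29.2 FPKM in control libraries. The Canx groups overlapped and did not pass (−0.19 ± 0.11, adjusted p = 0.186), but Canx, at 42.2% GC, was called lower after GC correction (−0.64, adjusted p = 2.65e-05) and without treated library 2 (−0.33, adjusted p = 0.0243).

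The isomerases that make and shuffle disulfide bonds did not move together. Pdia6, which also attenuates IRE1, had 79.7, 81.6 and 73.4 FPKM in treated libraries against 116, 111 and 118 FPKM in control libraries (−0.59 ± 0.07, adjusted p = 9.95e-05). Pdia4, also called ERp72, had 69.2, 69.4 and 65.6 FPKM in treated libraries against 82.1, 86.3 and 83.5 FPKM in control libraries (−0.34 ± 0.07, adjusted p = 0.00330). Both fell with no overlap, and after GC correction they stood at −0.52 and −0.32 and still passed. Pdia5, the least abundant, had 2.71, 1.68 and 2.41 FPKM in treated libraries against 3.59, 3.50 and 3.68 FPKM in control libraries and fell (−0.70 ± 0.19, adjusted p = 0.0120, or −0.52 after GC correction). Pdia3, known as ERp57, works with calnexin and calreticulin on glycoproteins. It had 110.7, 115 and 92.2 FPKM in treated libraries against 87.6, 78.6 and 84.5 FPKM in control libraries. Pdia3 rose 1.24-fold (0.31 ± 0.08, adjusted p = 0.0139) and kept that value after GC correction (0.30, adjusted p = 6.92e-04). Its call was lost without treated library 1 (0.28, adjusted p = 0.0731), treated library 2 (0.23, adjusted p = 0.0552), control library 2 (0.27, adjusted p = 0.0573) or control library 3 (0.28, adjusted p = 0.0648).

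In ER-associated degradation, 3 of 7 tested genes fell and 0 rose by edgeR (also 0 at an unadjusted p under 0.05, by DESeq2 and by limma), and after GC correction 3 fell and 1 rose. The falls by edgeR were 42.9% of these genes, against 23.5% of all rows. Herpud1 (ENSMUSG00000031770, chromosome 8, 95113066 to 95122005, plus strand, in the deposited coordinates, whose genome build the sources used here do not name) encodes a ubiquitin-like membrane protein of the retrotranslocation complex. It had 29.5, 29.6 and 31.8 FPKM in treated libraries against 60.8, 63.4 and 60.9 FPKM in control libraries. It fell to 0.48 of the control level (−1.06 ± 0.08, adjusted p = 6.66e-06), with a log2 fold change of −0.88 after GC correction, and the groups lay far apart. Herpud1 is the gene whose promoter window held both ERSE-II and the C/EBP-ATF element. Sel1l, the adaptor of the ubiquitin ligase HRD1, had 8.40, 8.30 and 8.08 FPKM in treated libraries against 10.6, 10.4 and 10.4 FPKM in control libraries (−0.38 ± 0.07, adjusted p = 9.85e-04, or −0.35 after GC correction). Derl2, a derlin of the retrotranslocation channel, had 3.97, 3.74 and 3.87 FPKM in treated libraries against 5.75, 4.88 and 5.06 FPKM in control libraries (−0.47 ± 0.09, adjusted p = 0.00144, or −0.82 after GC correction). All 3 genes had tight treated values that lay below every control library.

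The remaining degradation genes did not pass. Syvn1, which encodes HRD1 itself, had 9.11, 8.31 and 8.80 FPKM in treated libraries against 8.04, 8.28 and 7.77 FPKM in control libraries (0.09 ± 0.08, adjusted p = 0.433). Its groups did not overlap by a narrow margin, and it was called higher after GC correction (0.23, adjusted p = 0.0104). Syvn1 overlaps Mir6988 on the same strand and Mrpl49 on the other. Derl1, Selenos and Edem1, which encode another derlin, a selenoprotein that recruits the extracting ATPase, and a factor that recognises trimmed glycans, had log2 fold changes of −0.09 ± 0.08, −0.04 ± 0.08 and −0.03 ± 0.08 (−0.001, −0.02 and −0.07 after GC correction, none past the threshold). Their groups overlapped, and Derl1 averaged 53.7 ± 0.170 FPKM in treated cells and 55.7 ± 2.47 FPKM in control cells (SD, n = 3 each).

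Among the stress sensors and Xbp1, 1 of 3 fell and 0 rose by edgeR, also by DESeq2 and limma, and 0 passed after GC correction (1 lower at an unadjusted p under 0.05). The fall by edgeR was 33.3% of these genes, against 23.5% of all rows. Xbp1, the factor whose mRNA IRE1 splices, had 29.1, 26.1 and 27.1 FPKM in treated libraries against 32.7, 32.0 and 34.7 FPKM in control libraries. It fell (−0.31 ± 0.07, adjusted p = 0.00528) with no overlap, and stood at −0.13 after GC correction (adjusted p = 0.0675). A value per gene does not separate the spliced from the unspliced mRNA, so splicing was not measured. Ern1, the IRE1 gene, had 13.4, 12.4 and 11.7 FPKM in treated libraries against 13.4, 14.2 and 13.8 FPKM in control libraries and did not pass (−0.18 ± 0.07, adjusted p = 0.0754, or −0.04 after GC correction). Atf6 had 6.97, 7.57 and 6.09 FPKM in treated libraries against 6.96, 5.78 and 6.67 FPKM in control libraries, with overlap (0.05 ± 0.09, adjusted p = 0.671, or −0.01 after GC correction).

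The translocon and signal peptidase genes held both the deepest fall and 2 of the rises: 3 of 7 fell and 2 rose, and after GC correction 4 fell and 1 rose. Before that correction falls were 42.9% and rises 28.6% of these genes, against 23.5% and 23.0% of all rows. Ssr2 (ENSMUSG00000041355, chromosome 3, 88483183 to 88495726, plus strand, in the deposited coordinates) encodes the beta subunit of TRAP, the translocon-associated protein complex that aids insertion of some signal peptides. It had 75.2, 73.2 and 79.6 FPKM in treated libraries against 163, 170.0 and 171 FPKM in control libraries. It fell to 0.44 of the control level (−1.18 ± 0.08, adjusted p = 4.16e-06), and stood at −1.02 after GC correction. Of the other TRAP subunits, Ssr1, the alpha subunit, had 8.80, 9.44 and 7.16 FPKM in treated libraries against 10.9, 9.92 and 10.2 FPKM in control libraries and fell (−0.33 ± 0.09, adjusted p = 0.0137, or −0.53 after GC correction). The Ssr1 call was lost with library totals only (−0.25, adjusted p = 0.0685), with upper-quartile scaling (−0.20, adjusted p = 0.0894) and with a minimum mean FPKM of 5 (−0.20, adjusted p = 0.116). Ssr3, the gamma subunit, had 27.8, 33.3 and 21.4 FPKM in treated libraries against 31.5, 26.0 and 26.2 FPKM in control libraries. Ssr3 overlapped between groups and did not pass (−0.06 ± 0.13, adjusted p = 0.746), but, at 40.8% GC, it was called lower after GC correction (−0.64, adjusted p = 1.48e-04). The Ssr2 row overlaps the pseudogene Rtraf-ps on the opposite strand. Ssr4, the gene of the TRAP delta subunit, is outside the 33 genes and was named after its value was seen. It fell (−0.34 ± 0.09, adjusted p = 0.0131), and no GC-corrected value is given for it here. Differences in fold change between subunits were not tested.

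The Sec61 channel subunits also differed in their calls. Sec61a1, the pore-forming subunit, had 36.2, 31.4 and 34.5 FPKM in treated libraries against 44.4, 45.7 and 47.0 FPKM in control libraries and fell (−0.46 ± 0.08, adjusted p = 0.00123, or −0.28 after GC correction). Sec61b, the beta subunit, had 57.3, 52.6 and 58.4 FPKM in treated libraries against 53.8, 53.7 and 51.4 FPKM in control libraries and did not pass (0.05 ± 0.08, adjusted p = 0.658). Sec61b overlapped between groups through treated library 2 alone, and was called higher after GC correction (0.20, adjusted p = 0.0108). Tram1, which encodes a membrane protein that contacts nascent chains at the translocon, had 10.2, 10.5 and 7.83 FPKM in treated libraries against 6.59, 5.60 and 6.45 FPKM in control libraries. Tram1 rose 1.49-fold (0.57 ± 0.12, adjusted p = 0.00274) and was at 0.11 after GC correction (adjusted p = 0.272). Spcs1, a small subunit of signal peptidase, had 45.6, 54.5 and 42.7 FPKM in treated libraries against 42.3, 31.9 and 36.9 FPKM in control libraries. The Spcs1 groups almost touched, and it rose (0.33 ± 0.11, adjusted p = 0.0331). GC correction turned the value to −0.17 (adjusted p = 0.0505), and the call was lost without treated library 1 (0.36, adjusted p = 0.0610), treated library 2 (0.21, adjusted p = 0.158), control library 2 (0.23, adjusted p = 0.134) or control library 3 (0.30, adjusted p = 0.124). Spcs1 overlaps Glt8d1 on the opposite strand.

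**Figure D4:**
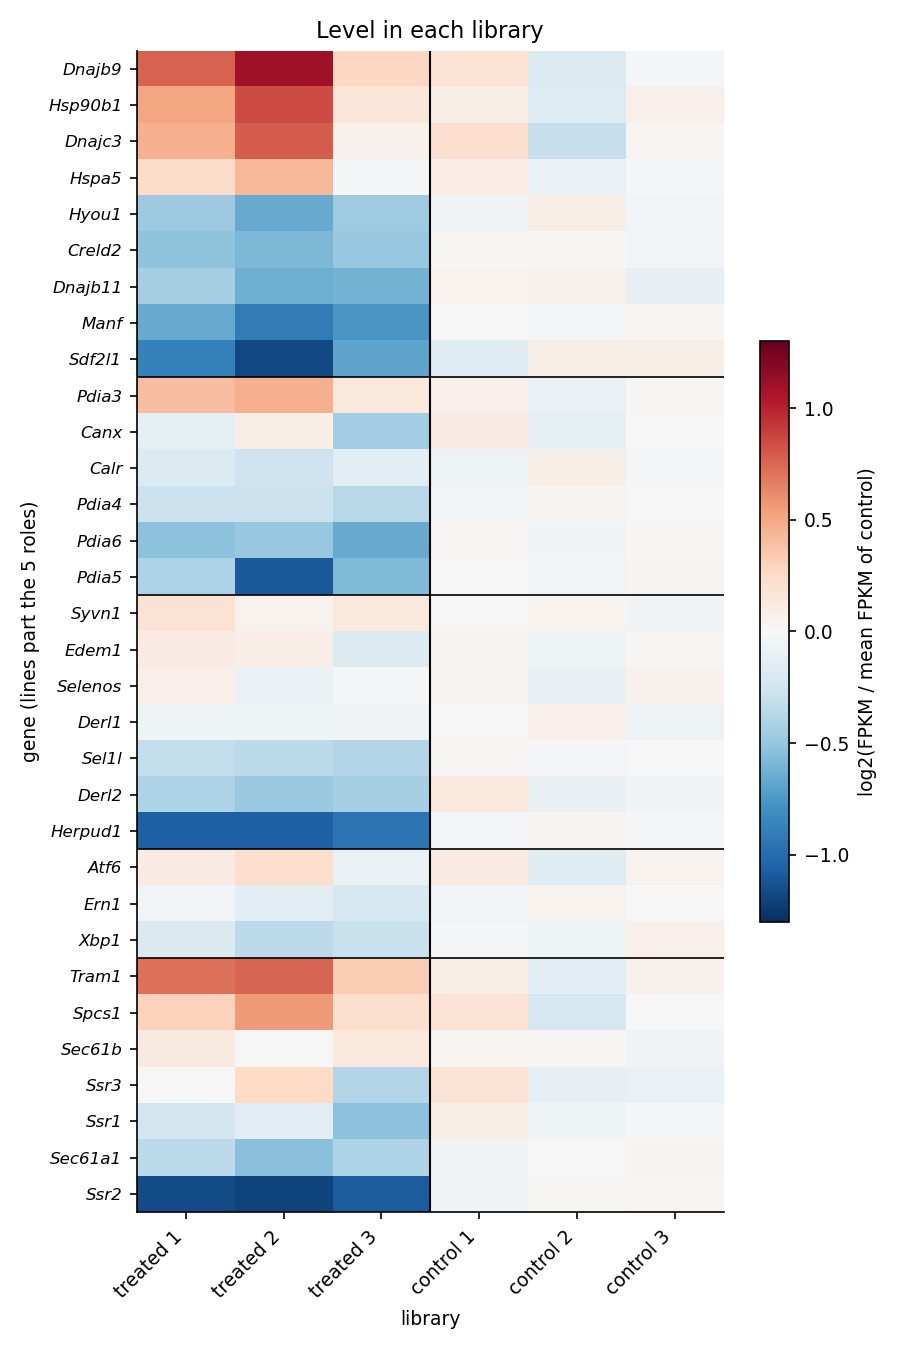
Level of each tested gene in each library as log2 of FPKM over the mean FPKM of the 3 control libraries, treated libraries on the left, with lines between roles. Genes that rose are darkest in treated library 2 and palest in treated library 3, while Ssr2 and Herpud1 are at about the same depth in all 3 treated libraries.

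The genes that rose shared a library order, but it was not particular to them. All 5 genes that rose were highest in library 2 and lowest in library 3 among treated libraries, and all 5 were highest in library 1 and lowest in library 2 among control libraries. The same order was seen in Hspa5, Canx, Dnajc3, Atf6 and Ssr3, which did not pass, and in Ssr1, which fell. Of the 16 genes that fell, 11 were lowest in treated library 2. The count of rises was 5 in the full fit, but 3 without treated library 1, 2 without treated library 2, 7 without treated library 3, 5 without control library 1, 2 without control library 2, 3 without control library 3 and 1 without both libraries numbered 2. Calls higher over all rows, in the same order of fits, were 3735, 2832, 2970, 3544, 3572, 3334, 3138 and 3021. In the fits without treated library 2 and without control library 2, the 2 genes called were Dnajb9 and Tram1. By contrast, 12 of the 16 that fell kept the same call in every one of the 19 alternative settings in which they were tested: Pdia4, Pdia6, Dnajb11, Sdf2l1, Manf, Creld2, Herpud1, Sel1l, Hyou1, Sec61a1, Derl2 and Ssr2. Upper-quartile scaling in place of TMM moved the median of all rows by 0.12 and the split of calls to 4688 higher and 3028 lower, against 3735 higher and 3813 lower with TMM. These 12 genes fell under both scalings. All of them but Pdia4 had a smaller adjusted p in the full fit than any gene that rose. How many calls over all rows held in every setting is not given here.

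The genes with an ERSE in their promoter window did not move in one direction. Of the 8 tested, 1 rose (Hsp90b1), 3 fell (Calr, Pdia6 and Creld2) and 4 did not pass (Hspa5, Canx, Dnajc3 and Syvn1), with a median log2 fold change of −0.05. Of the 17 tested genes with a window but no ERSE, 3 rose and 9 fell, with a median of −0.31. Falls were 37.5% with and 52.9% without an ERSE, and rises 12.5% and 17.6%. Over all rows 23.5% fell and 23.0% rose. Herpud1 counts among these 17, but its window ends in CCAAT, 9 bases and CCAC, so the window edge may cut an ERSE short. Bases past the start were not searched, so this split of the genes is uncertain. After GC correction the counts among the genes with an ERSE were again 1 and 3 but for other genes, since Syvn1 rose and Canx, Pdia6 and Creld2 fell while Hsp90b1 and Calr lost their calls. Among those with a window and no ERSE, 2 rose and 9 fell after GC correction. The 7 genes with no window in the table, among them Ssr2 and Manf, counted 1 rise and 4 falls.

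Other genes of the same processes were counted from lists drawn up from general knowledge with earlier results of these data known. Their counts are to be read against the 23.0% of all rows that rose and the 23.5% that fell, or 24.3% and 25.4% after GC correction. The lists and all rows were not matched for level. Among 21 tested stress sensors and signalling genes outside the 33, 4 rose (19.0%) and 8 fell (38.1%, with 6 and 8 after GC correction), and the median log2 fold change was −0.10. Ddit3, which encodes CHOP, the factor of the PERK branch linked to cell death, averaged 69.5 ± 1.93 FPKM in treated cells and 27.95 ± 0.572 FPKM in control cells (SD, n = 3 each) and rose (1.28 ± 0.07, adjusted p = 1.23e-06, or 1.19 after GC correction). Ppp1r15a, the GADD34 gene, whose product reverses the translation block, rose (0.48 ± 0.08, adjusted p = 5.66e-04, or 0.64 after GC correction). Trib3, a known target of ATF4 and CHOP, fell (−1.42 ± 0.09, adjusted p = 2.46e-06, or −1.31 after GC correction), at 30.5 ± 2.34 FPKM in treated cells and 80.0 ± 3.61 FPKM in control cells. Mbtps1, the site-1 protease that cuts ATF6, fell (−0.88 ± 0.08, adjusted p = 1.81e-05, or −0.75 after GC correction), as did Bak1, a pore-forming cell death gene that also acts at the ER (−1.47 ± 0.07, adjusted p = 8.65e-07, or −1.33 after GC correction). Eif2a rose (0.85 ± 0.24, adjusted p = 0.0149), a call lost after GC correction (0.18, adjusted p = 0.470). Bax, the most abundant that did not pass, stood at −0.16 ± 0.16 (−0.14 after GC correction). Chosen after their values were seen, Atf4 averaged 146.9 ± 1.87 FPKM in treated cells and 199 ± 9.78 FPKM in control cells and fell (−0.48 ± 0.08, adjusted p = 6.71e-04, or −0.31 after GC correction), and the PERK gene Eif2ak3 did not pass (0.08 ± 0.13, adjusted p = 0.680, or 0.23 with adjusted p = 0.163 after GC correction).

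The genes of oxidative folding, glycan trimming and further co-chaperones went both ways, with 10 of 37 tested higher (27.0%) and 12 lower (32.4%, with 12 and 12 after GC correction), around a median of 0.06. Ero1a, the oxidase that recharges disulfide isomerases, had 84.2 ± 13.1 FPKM in treated cells and 28.6 ± 2.05 FPKM in control cells and rose (1.52 ± 0.11, adjusted p = 5.19e-06, or 1.02 after GC correction). Its main partner P4hb, the founding protein disulfide isomerase, had 757, 707 and 768 FPKM in treated libraries against 403, 417 and 424 FPKM in control libraries. P4hb rose (0.81 ± 0.07, adjusted p = 2.33e-05, or 0.99 after GC correction), so that its treated level was above that of any of the 33 genes. Among its relatives Pdia3 rose and Pdia4, Pdia5 and Pdia6 fell. Gpx8, an ER peroxidase, rose too (2.14 ± 0.27, adjusted p = 1.46e-04, or 1.94 after GC correction). Txndc5, another thioredoxin-like isomerase, fell (−0.66 ± 0.08, adjusted p = 1.40e-04, or −0.49 after GC correction), as did Uggt1, the glucosyltransferase that senses misfolded glycoproteins (−0.72 ± 0.09, adjusted p = 1.58e-04), and the collagen isomerase gene Fkbp10 (−0.60 ± 0.09, adjusted p = 4.05e-04). After GC correction Uggt1 stood at −0.65 and Fkbp10 at −0.47. Ppib was the most abundant that did not pass (0.17 ± 0.08, adjusted p = 0.129), and it was called higher after GC correction (0.29, adjusted p = 0.00708).

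Among degradation genes outside the 33, 6 of 31 tested were higher and 6 lower (19.4% each, with 6 and 8 after GC correction), shares near those of all rows, around a median of −0.10. Vcp, the ATPase that extracts proteins from the ER membrane, fell (−0.59 ± 0.08, adjusted p = 1.92e-04), at 52.5 ± 2.66 FPKM in treated cells and 76.95 ± 2.97 FPKM in control cells, and so did its cofactor gene Nploc4 (−0.61 ± 0.08) and the mannosidase gene Man1b1 (−0.57 ± 0.09). After GC correction Vcp stood at −0.48, Nploc4 at −0.43 and Man1b1 at −0.38. Jkamp (1.24 ± 0.17), Ngly1 (1.37 ± 0.23), which removes glycans from retrotranslocated proteins, and Ubxn4 (0.79 ± 0.12), which ties the ATPase to the membrane, rose. After GC correction Jkamp stood at 1.23, Ngly1 at 0.83 and Ubxn4 at 0.72. Bcap31 was the most abundant that did not pass (0.04 ± 0.08, or 0.07 after GC correction).

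Translocation and oligosaccharyl transfer genes outside the 33 gave 13 rises and 13 falls among 40 tested (32.5% each, with 12 and 13 of 39 after GC correction), around a median of 0.02. Sec61g, the third Sec61 subunit, averaged 21.7 ± 1.85 FPKM in treated cells and 10.07 ± 0.0595 FPKM in control cells and rose (1.07 ± 0.09, adjusted p = 1.23e-05, or 0.87 after GC correction), next to a lower Sec61a1 and a Sec61b that did not pass. Emc2 (1.46 ± 0.20), of the membrane protein insertion complex, and Tusc3 (0.73 ± 0.09), of the oligosaccharyltransferase, rose. After GC correction Emc2 stood at 0.92, and Tusc3 had no corrected value. Other oligosaccharyltransferase subunits fell: Krtcap2 (−0.81 ± 0.09), the catalytic Stt3a (−0.56 ± 0.07) and Rpn1 (−0.48 ± 0.07). After GC correction Krtcap2 stood at −0.63, Stt3a at −1.15 and Rpn1 at −0.34. Emc6 was the most abundant that did not pass (−0.16 ± 0.09, or −0.09 after GC correction).

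In the ER exit and ER turnover list, 7 of 25 rose (28.0%) and 10 fell (40%, with 8 and 12 after GC correction), around a median of −0.04. The rises were led by genes of ER-phagy receptors, which link the ER to autophagosomes: Calcoco1 (0.90 ± 0.10, adjusted p = 9.08e-05), Retreg1 (1.0 ± 0.17, adjusted p = 8.33e-04) and Ccpg1 (0.72 ± 0.14, adjusted p = 0.00184). The falls were led by Sec31a (−1.01 ± 0.08, adjusted p = 7.74e-06) and Sec23b (−0.83 ± 0.09, adjusted p = 5.23e-05), subunits of the COPII coat that carries cargo out of the ER. Next came Rtn3 (−0.64 ± 0.08, adjusted p = 1.07e-04), a reticulon that is also an ER-phagy receptor, so genes of such receptors went both ways. All 6 kept their direction and passed after GC correction, Calcoco1 at 1.03, Retreg1 at 0.88, Ccpg1 at 0.81, Sec31a at −0.84, Sec23b at −1.36 and Rtn3 at −0.70. The retrieval receptor gene Kdelr1 was the most abundant that did not pass (0.17 ± 0.09, adjusted p = 0.163), and it was called higher after GC correction (0.34, adjusted p = 0.00220).

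Of 5 tested transcripts known to be cut by IRE1, 1 rose and 1 fell (20% each, with 1 and 0 after GC correction). Hgsnat rose (0.69 ± 0.08, adjusted p = 6.97e-05, or 0.81 after GC correction), Pdgfrb fell (−0.27 ± 0.10, adjusted p = 0.0437), a call lost after GC correction (−0.09, adjusted p = 0.333), and Bloc1s1, the best known of them, did not pass (0.09 ± 0.10, adjusted p = 0.493, or 0.21 with adjusted p = 0.159 after GC correction). In the rest of the KEGG pathway of protein processing in the ER, as the deposited table annotates it, 18 of 59 tested genes rose (30.5%) and 20 fell (33.9%, with 14 and 19 after GC correction), around a median of 0.10. Its falls were led by Hspbp1 (−0.95 ± 0.11), Ubqln4 (−0.82 ± 0.09) and Preb (−0.69 ± 0.08), the exchange factor that starts COPII coats, at −0.85, −0.65 and −0.52 after GC correction. Its rises were led by Hspa1a (4.34 ± 0.17), Hspa1b (3.37 ± 0.16) and Dnajb2 (0.78 ± 0.10), whose products are chaperones of the cytosol, at 4.45, 3.51 and 0.92 after GC correction. Stub1 was the most abundant that did not pass (−0.05 ± 0.08, or 0.03 after GC correction).

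**Figure D5:**
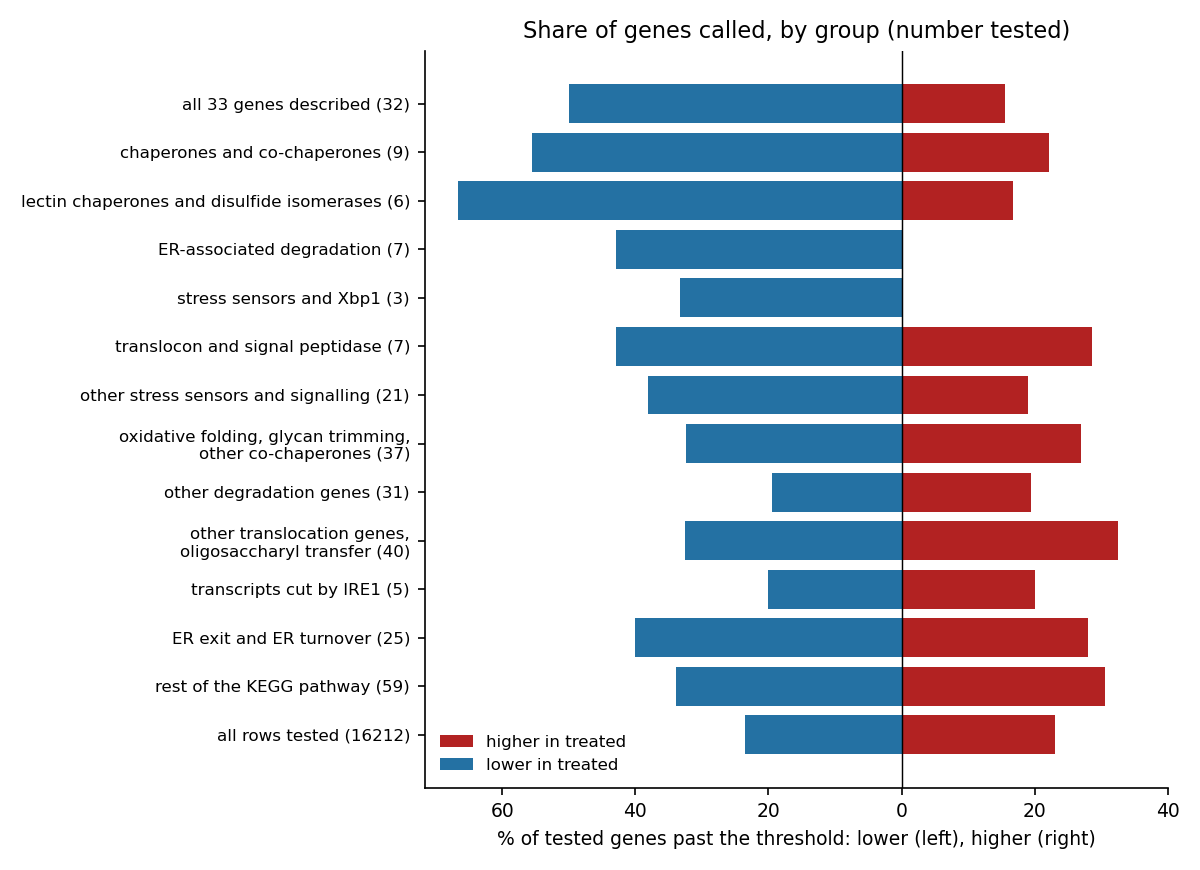
Percent of the tested genes in each group that passed the threshold, lower in treated cells to the left and higher to the right, with the number tested in brackets. The 33 genes described had 50% lower and 15.6% higher, beside 23.5% and 23.0% of all rows tested. The groups were not matched for level.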

How the data were processed

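Per the file headers, the authors deposited FPKM values and counts per gene and library for mRNA of 6 libraries. The deposited counts are whole numbers and were treated as estimated counts. For each gene the ratio of count to FPKM, divided by the median ratio of its library, was nearly constant. Its median coefficient of variation was 0.0397% over 9971 rows. That ratio alone does not show how the counts were made. A count of 4 occurred 4054 times, against 2539.5 for its neighbours, so a fragment weighs about 4. Tools listed in the submitters' processing notes, without roles, are HISAT2 2.2.1, StringTie 2.1.6, cutadapt 1.9, edgeR and DESeq2. Build, annotation and use of strand in counting are not given in the sources used, so overlapping and antisense genes are uncertain. Of the 33 genes, 1 shared a start or end with GENCODE M21, so deposited coordinates were not mixed with GRCm38.

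The main test was edgeR 4.0.16 (quasi-likelihood, R 4.3.3) on all deposited counts, with its default low-count filter and TMM scaling, 2-sided, over 16212 of 25407 rows, Benjamini-Hochberg threshold 0.05. SE is the fold change over the square root of F. GC content came from GENCODE M21 transcripts (97.2% of tested rows, all of the 33 genes), and the correction fitted a loess curve (span 0.4) to each library's deviation from the row mean. Promoters are RefSeq (GRCm38.p6). No pair of libraries was a duplicate. The fits were tested on simulated data. Alternatives were DESeq2 1.42.0, limma 3.58.1 on log2(FPKM + 1) and log2(FPKM + 0.1), other scalings and filters, counts divided by 4, GC correction, a replicate block and left-out libraries. The genes and lists were chosen with earlier results of these data known. All 33 genes are named. Of each other list, up to 3 genes past the threshold in each direction with the smallest p and the most abundant that did not pass are named. Atf4, Eif2ak3 and Ssr4 were added after their values were seen.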

Additional observations from a re-analysis of the deposited data

How the results depend on the processing

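The precision is limited by 3 libraries a group, by the weight of about 4 counts per fragment and, for Derl3 and Pdia5, by low levels. Between 12 and 16 of the genes were called lower in each of 19 alternatives (1 of them, GC correction without treated library 2, chosen after the data were seen). Over all rows the calls lower ran from 2193 of 6168 rows with a minimum mean FPKM of 5 to 4000 of 15760 rows with GC correction. Of the 16 that fell, 12 kept their call in all of those that tested them, and 0 of the 5 that rose did. The genes called higher numbered 5, and 8 with a minimum mean FPKM of 5, 3 with GC correction, with the replicate block and GC correction together, and with GC correction and no treated library 2, 1 without both libraries numbered 2, and 2 to 7 with each library left out in turn. Over all rows the calls higher were 3735 in the full fit and 2217 of 6168 rows with a minimum mean FPKM of 5. They were 3829 with GC correction, 3417 with the replicate block and GC correction, and 3293 with GC correction and no treated library 2. They were 3021 without both libraries numbered 2, and 2832 to 3572 with each library left out in turn. The median log2 fold change of −0.21 became −0.13 with library totals only, −0.089 with upper-quartile scaling and −0.06 with a minimum mean FPKM of 5. Over all rows the median of 0.058 became 0.135, 0.181 and −0.004 in the same settings. The sign turned for Spcs1 with GC correction (−0.17), with the replicate block and GC correction (−0.18) and with GC correction and no treated library 2 (−0.13), and for Hsp90b1 with the last of these (−0.002). The cause was not tested.

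Replicate numbers did not pair the libraries: same-numbered libraries deviated together with correlations of 0.040, −0.103 and 0.006. With the replicate block, 4 genes rose and 15 fell, against 3070 and 3205 of all rows. Calls higher and lower over all rows were 4183 and 3351 with library totals only and 4688 and 3028 with upper-quartile scaling. Ssr1 lost its call with library totals only, with upper-quartile scaling and with a minimum mean FPKM of 5 (adjusted p = 0.0685, 0.0894 and 0.116), and Pdia5 with GC correction and no treated library 2 (adjusted p = 0.0643). No gene occupied several rows, so that alternative gave no value.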
